A study of Homo sapiens with 10 samples.

Results

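The chaperone genes described here are HSPA8, HSPA4, HSPH1, DNAJB1, DNAJA1, HSPB1, HSP90AA1, HSPD1, HSPE1 and BAG3, 10 genes of the heat shock protein network, followed over 10 Affymetrix human expression arrays. The members were taken as every probe set that the platform annotation gives to 1 gene of that list. This gave 23 probe sets of 9 genes, out of 41091 probe sets with 1 gene and 54675 on the array. The 4 probe sets that list HSPA8 also list SNORD14C and SNORD14D, small nucleolar RNA genes, so they were assigned to no gene and not tested. The remaining members have 1 probe set (HSPB1, HSPE1 and BAG3), 2 (DNAJB1 and DNAJA1), 3 (HSPH1), 4 (HSPA4 and HSP90AA1) or 5 (HSPD1). A filter on mean level, at an intensity of 19.8, was passed by 21 of the 23, and the 2 left out were dim probe sets of HSPD1 (243845_at and 241716_at).

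The arrays come from a study of early responses to estrogen in lung cancer cells. A549 is an established lung adenocarcinoma line and HTB-182, also called H520, is an established squamous lung carcinoma line. Cells of each line spent 4 h in charcoal-stripped serum medium, which is low in steroid hormones, and were then exposed for 3 h. The exposures were 1 µM estradiol-BSA, a conjugate of the hormone with bovine serum albumin, with 10 µM tamoxifen, 1 µM estradiol-BSA alone, 1 µM estradiol with 10 µM tamoxifen, 1 µM estradiol alone, and 0.1% ethanol, the vehicle. The conjugate was used for receptors at the plasma membrane, free estradiol for membrane and intracellular receptors, and tamoxifen as an inhibitor. All groups share the charcoal-stripped serum, and no group received tamoxifen alone, albumin alone or heat. Each of the 10 combinations is 1 array with no replicate culture stated, so the p-values reflect only how far these arrays spread, and that spread may be technical. The titles of the arrays given estradiol with tamoxifen name tamoxifen only, and the source names of the A549 arrays join both line names. Grouping follows the source descriptions and the cell line entries.

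Molecular chaperones bind unfolded or partly folded proteins and help them reach or keep their native form. HSP70 proteins such as HSPA8 work in a cycle driven by ATP, in which J proteins (DNAJB1, DNAJA1) deliver clients and speed hydrolysis. Nucleotide exchange factors (HSPH1, HSPA4, BAG3) then release the client. Many of these genes are induced by heat shock factor 1, HSF1, when unfolded proteins build up, and tumour cells often rely on high chaperone levels.

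The lines were checked against marker genes of lung epithelia. All 4 epithelial markers passed the filter in the data set, with a summed intensity of 12234 to 14736 in A549 and 11634 to 12223 in HTB-182. Of the squamous markers, 3 of 6 passed, summing to 125 to 279 in A549 and 3929 to 4458 in HTB-182. SOX2 averaged 135 in A549 and 4152 in HTB-182, nearly all of the HTB-182 sum, and KRT5 was dim in both, at 26.1 in A549 and 22.1 in HTB-182. The alveolar and adenocarcinoma markers (5 of 7 passed) summed to 3060 to 4418 in A549 and 168 to 201 in HTB-182, and KRT7, at 3411 in A549 and 18.1 in HTB-182, made up most of the A549 sum. SFTPB (27.8 in A549 and 32.2 in HTB-182) and SFTPC (41.6 and 48.0) were not higher in A549, and NKX2-1 did not pass the filter. Blood markers summed to at most 170 and endothelial markers to at most 60.5 on any array, while the fibroblast list reached 534 in A549 and 75.6 in HTB-182. COL1A1, with a mean of 382 in A549 and 20.6 in HTB-182, made up most of the A549 sum. DCN was similar in the lines (40.3 and 36.5), and COL1A2 and LUM did not pass the filter. One array stood apart. On the A549 vehicle array 263 of 12975 genes differed by 2-fold or more relative to the average over the remaining A549 arrays, 249 of them lower, against 23 to 35 on the other A549 arrays and 0 to 3 in HTB-182.

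The 2 lines differed in most of the chaperone genes, with HSPB1 and BAG3 far higher in A549 and the mitochondrial pair HSPD1 and HSPE1 slightly lower. Levels are given as intensities and differences as log2(intensity + 16), estimated with limma over the 5 pairs of arrays with the same treatment, with Benjamini-Hochberg adjustment over 23130 probe sets. At an adjusted p under 0.05, 15 of 21 member probe sets differed between the lines, 6 higher and 9 lower in A549. Of all probe sets tested, 63.8% differed, 31.5% higher and 32.3% lower, so the share of members is close to that of the array as a whole. In 12 of the 21 all 5 arrays of one line lay beyond all 5 of the other, as in 55.6% of all probe sets. With 1 probe set per gene, the brightest, 8 of the 9 genes differed, 3 higher and 5 lower, where 65.7% of 12975 genes did (33.6% higher, 32.0% lower). The 5 lower include HSPA4, of which another probe set was higher, and DNAJB1, whose call was lost without some single arrays. The median member difference was -0.17 and that of all genes 0.03. The ACTB control ratio of 3' to 5' signal, a measure of RNA integrity and of labelling, also separated the lines, at 2.66 to 3.57 in A549 and 3.74 to 6.13 in HTB-182, and its part in the line differences was not tested. RNA was taken from whole cultures, where fewer expressing cells and less RNA per cell cannot be told apart.

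**Figure D1:**
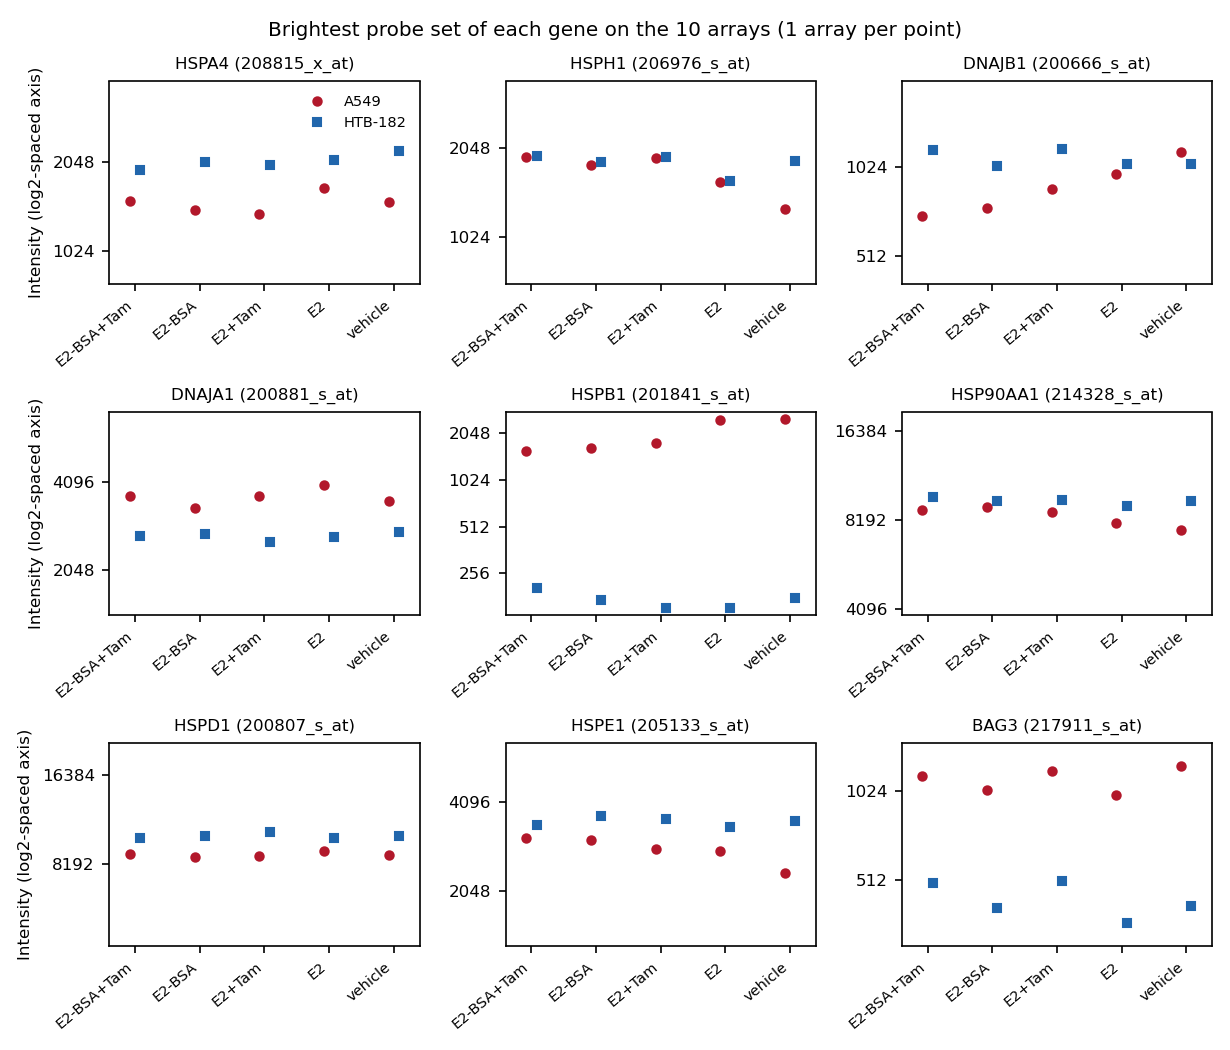
Intensity of the brightest probe set of each of 9 chaperone genes on the 10 arrays (log2-spaced y axis; treatments on the x axis; E2 is estradiol, Tam is tamoxifen; 1 array per point, no error bars because no combination was repeated). HSPB1 and BAG3 in A549 (red circles) lie above HTB-182 (blue squares) at every treatment, HSPD1 and HSPE1 lie below, and HSPH1 overlaps.

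HSPB1, the small heat shock protein HSP27 that holds unfolded proteins and stabilises actin, showed the largest difference of the members. Its probe set 201841_s_at read 1582 with estradiol-BSA and tamoxifen, 1655 with estradiol-BSA, 1783 with estradiol and tamoxifen, 2492 with estradiol and 2538 with vehicle in A549. In HTB-182 it read 206, 172, 154, 153 and 179 in the same order of treatments. Every A549 array was above every HTB-182 array. The mean was 2010 ± 467 in A549 and 173 ± 21.8 in HTB-182 (SD, n = 5 arrays each), and the log2 difference was 3.40 ± 0.14 (SE; 95% interval 3.10 to 3.70; adjusted p = 1.67e-09; 10.6-fold; higher in 5 of 5 pairs). Within A549 the vehicle and estradiol arrays were well above the other 3, and the GAPDH control ratio of 3' to 5' signal was lower on the same 2 arrays, at 1.45 with estradiol and 1.43 with vehicle, against 1.56 to 1.61 on the others. The part of that ratio in the HSPB1 values was not tested. No matching order was seen in HTB-182, where the highest value was with estradiol-BSA and tamoxifen. That array had the highest GAPDH ratio of its line, at 1.74, against 1.46 to 1.53 on the other HTB-182 arrays.

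BAG3, a co-chaperone that bridges HSP70 to small heat shock proteins and to selective autophagy, read 1160 with estradiol-BSA and tamoxifen, 1039 with estradiol-BSA, 1197 with estradiol and tamoxifen, 999 with estradiol and 1252 with vehicle in A549 (217911_s_at). In HTB-182 it read 503, 413, 511, 366 and 420 in that order. The lines did not overlap. The mean was 1129 ± 107 in A549 and 443 ± 62.4 in HTB-182 (SD, n = 5 arrays each), a log2 difference of 1.33 ± 0.08 (SE; 95% interval 1.14 to 1.51; adjusted p = 8.46e-08; 2.51-fold; higher in 5 of 5 pairs).

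The J proteins split. DNAJA1, which delivers clients to cytosolic HSP70, was higher in A549 by both of its probe sets. Probe set 200881_s_at averaged 3637 ± 242 in A549 and 2674 ± 77.7 in HTB-182 (log2 0.44 ± 0.06, SE, adjusted p = 4.00e-05), and 200880_at averaged 3214 ± 180 and 2609 ± 159 in the same lines (log2 0.30 ± 0.05, adjusted p = 4.35e-04). DNAJB1, the heat-inducible HSP40, was lower in A549 by 200666_s_at only. That probe set read 699, 747, 865, 974 and 1155 in A549, and 1173, 1034, 1182, 1051 and 1051 in HTB-182, each from estradiol-BSA with tamoxifen through estradiol-BSA, estradiol with tamoxifen and estradiol to vehicle. The A549 vehicle array lay above 3 of the 5 HTB-182 arrays, and the other 4 A549 arrays lay below all of them. The difference was -0.32 ± 0.11 (SE; adjusted p = 0.0278; lower in 4 of 5 pairs), and it missed the threshold without any one array given estradiol-BSA with tamoxifen, estradiol-BSA or estradiol with tamoxifen, in either line, with adjusted p up to 0.127 (log2 -0.22). The dimmer 200664_s_at was at -0.24 (adjusted p = 0.229), with pairs running from -0.67 to 0.49. Without the vehicle array of either line it was called lower (log2 -0.42, adjusted p = 0.00702 without that of HTB-182).

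HSPH1 and HSPA4, relatives of HSP70 that act as its nucleotide exchange factors, gave answers that depended on the probe set. For HSPH1, the brightest probe set 206976_s_at averaged 1687 ± 270 in A549 and 1823 ± 137 in HTB-182 and did not pass the test (log2 -0.12, 95% interval -0.31 to 0.06, adjusted p = 0.233). Probe set 208744_x_at of the same gene was higher in A549, at 880 ± 249 against 575 ± 107 in HTB-182 (log2 0.58 ± 0.13, SE, adjusted p = 0.00193), and 235573_at was at -0.19 (adjusted p = 0.144), or -0.24 with quantile normalization (adjusted p = 0.0353). For HSPA4, 208815_x_at was lower in A549, at 1497 ± 120 against 2067 ± 117 in HTB-182 (log2 -0.46 ± 0.07, SE, adjusted p = 8.46e-05). Probe set 211015_s_at was lower too (-0.71 ± 0.09), while 208814_at was higher, at 435 ± 87.2 in A549 against 259 ± 33.7 in HTB-182 (0.70 ± 0.13, adjusted p = 6.11e-04). The dim 211016_x_at, at 61.1 ± 15.2 in A549 and 77.4 ± 10.7 in HTB-182, was at -0.29 with adjusted p = 0.0568. It passed without the estradiol array of A549 (-0.39, adjusted p = 0.0211) or of HTB-182 (adjusted p = 0.0215), and with quantile normalization (-0.36, adjusted p = 0.0215). Probe sets of 1 gene thus moved in opposite directions, and no single direction can be given for HSPA4. In the manufacturer's naming, the letters x and s in an identifier mark probe sets that may also match other transcripts.

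HSP90AA1, the inducible cytosolic HSP90 that matures kinases and steroid receptors, differed little. Its brightest probe set 214328_s_at read 8837, 9075, 8737, 8034 and 7551 in A549 and 9833, 9470, 9572, 9152 and 9491 in HTB-182, from estradiol-BSA with tamoxifen to vehicle in the order above. Every A549 array was below every HTB-182 array, the highest A549 value of 9075 just under the lowest HTB-182 value of 9152. The difference was -0.17 ± 0.04 (SE; adjusted p = 0.0039; 1.13-fold lower), and 211969_at (-0.19, adjusted p = 0.00347) and 210211_s_at (-0.25) were also lower. Probe set 210211_s_at missed the threshold without the estradiol array of A549 (adjusted p = 0.0766) or of HTB-182 (adjusted p = 0.0748). Probe set 211968_s_at was at 0.11 with adjusted p = 0.235.

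HSPD1 and HSPE1 encode the HSP60 barrel of mitochondria and its lid, and are transcribed divergently from a shared promoter region. HSPD1 averaged 8804 ± 149 in A549 and 10200 ± 183 in HTB-182 by 200807_s_at (log2 -0.21 ± 0.03, SE, adjusted p = 2.16e-04, 1.16-fold lower, lower in 5 of 5 pairs). HSPE1 averaged 2825 ± 294 in A549 and 3514 ± 121 in HTB-182 (log2 -0.32 ± 0.06, adjusted p = 0.00109, 1.25-fold lower). For both genes the lines did not overlap. Within A549, HSPE1 read 2787 to 3093 on the 4 treated arrays, against 2356 on the vehicle array. Of the other HSPD1 probe sets, 243372_at was lower, at 60.6 ± 5.73 in A549 against 155 ± 3.90 in HTB-182 (log2 -1.16 ± 0.10), and 200806_s_at did not pass the test (-0.11, adjusted p = 0.29). It did so without the array given estradiol-BSA with tamoxifen in A549 (-0.20, adjusted p = 0.0363) or in HTB-182 (adjusted p = 0.034). The 2 dim HSPD1 probe sets averaged 17.8 and 6.38 in A549 and 18.3 and 7.01 in HTB-182.

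**Figure D2:**
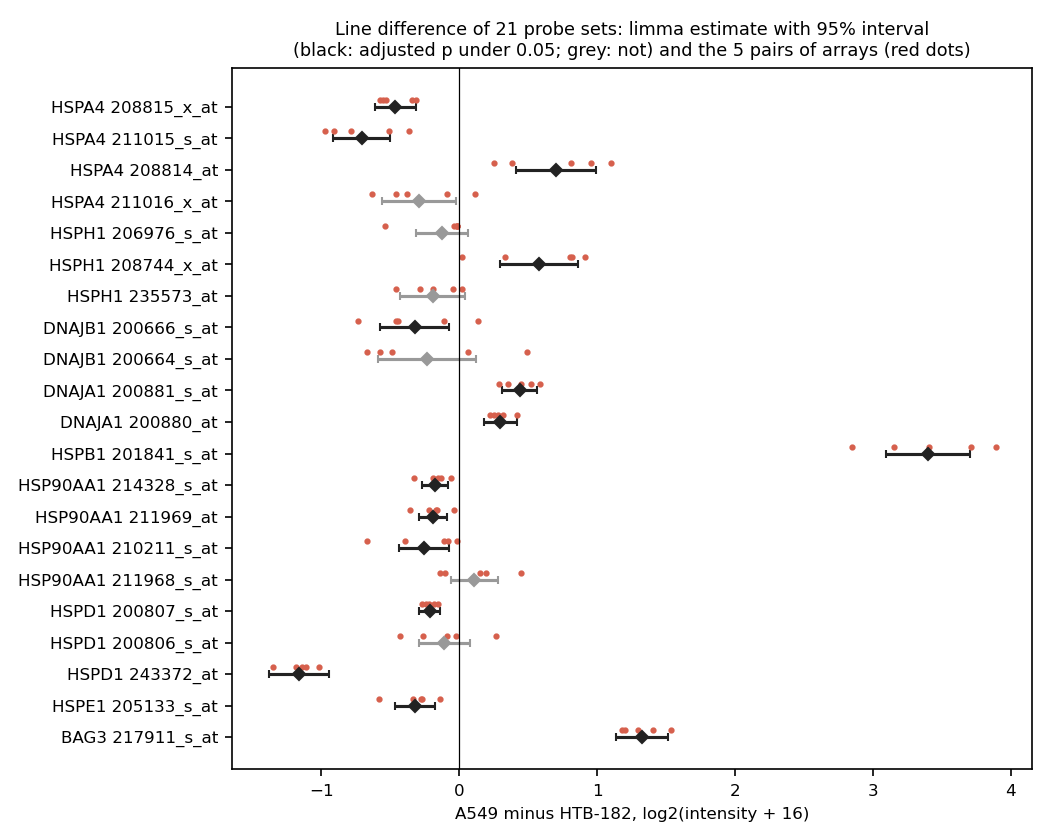
A549 minus HTB-182 for 21 chaperone probe sets on the log2(intensity + 16) scale (diamonds, limma estimate; bars, 95% interval; black, adjusted p under 0.05; grey, not; red dots, the 5 pairs of arrays with the same treatment). HSPB1 at 3.40 and BAG3 at 1.33 lie farthest to the right, and HSPA4 and HSPH1 have probe sets on both sides of 0.

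The promoters of the members are of interest because HSF1 binds inverted repeats of a short unit. Windows of 300 bases, 250 before to 50 after each RefSeq start on GRCh38.p14, were searched on both strands for GAANNTTC and TTCNNGAA, each of which reads the same on both strands, and for 3 such units in alternating order. The pair of units was in 13.5% of all 35116 windows and in 7 of 14 windows of the members (6 of 10 genes, against 16.2% of 27305 genes). The 3-unit kind was in 0.49% of all windows and in 4 of those 14, which belong to HSPA8, DNAJA1, HSP90AA1 and HSPD1. The windows of HSPA4, HSPH1, HSPE1 and BAG3 held neither, which says only that these letters are not in these windows. Another window of DNAJB1, of HSP90AA1 and of HSPD1 also held neither. The HSPD1 stretch below ends at 197500090, just outside the HSPE1 window, which begins at 197500129. The matches overlap one another and describe letters, not bound sites. The stretches below, from RefSeq, show the matches in capitals, for the member with the largest line difference, for DNAJB1, the heat-inducible J protein, and for 2 members with the 3-unit form.
HSPB1, chr7:76302461-76302528, plus strand: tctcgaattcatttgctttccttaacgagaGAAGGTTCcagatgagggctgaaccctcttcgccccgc
DNAJB1, chr19:14518407-14518504, minus strand: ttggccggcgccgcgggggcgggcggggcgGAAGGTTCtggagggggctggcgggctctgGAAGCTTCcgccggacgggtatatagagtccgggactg
HSP90AA1, chr14:102087075-102087162, minus strand: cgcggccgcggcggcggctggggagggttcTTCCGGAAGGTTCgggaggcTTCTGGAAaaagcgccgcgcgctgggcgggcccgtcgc
HSPD1, chr2:197500038-197500090, minus strand: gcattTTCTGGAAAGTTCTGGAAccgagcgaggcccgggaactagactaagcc
Counted from the RefSeq start whose window is printed, the matches span -182 to -175 for HSPB1, -77 to -40 for DNAJB1, -88 to -61 for HSP90AA1 and -245 to -228 for HSPD1. Members with the 3-unit form lay on both sides of the line difference, as DNAJA1 was higher in A549 and HSP90AA1 and HSPD1 were lower by their brightest probe sets. BAG3, with no match, and HSPB1, with 1 match of the shorter kind, had the largest differences. No binding was measured, and any link between these letters and the line differences was not tested.

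Tamoxifen was added to each estrogen in both lines, which gives 4 pairs of arrays. Limma called 0 of 23130 probe sets (0%) at an adjusted p under 0.05, and therefore 0 of the 21 members. An unadjusted limma p under 0.05 was found for 391 probe sets, or 1.69%. The member nearest to a difference was BAG3. Its pairs, with tamoxifen and without, were 1197 and 999 on estradiol and 1160 and 1039 on estradiol-BSA in A549, and 511 and 366 on estradiol and 503 and 413 on estradiol-BSA in HTB-182. The array with tamoxifen was the higher in 4 of 4 pairs, and in HTB-182 both arrays with tamoxifen also exceeded the vehicle array at 420. In A549 the vehicle array at 1252 was above all 4 treated arrays, as it was for 10824 of 23130 probe sets. The log2 difference was 0.29 ± 0.09 (SE; 95% interval 0.08 to 0.50; 1.22-fold; unadjusted p = 0.0111; adjusted p = 1.00 by limma), so it did not pass. It ran from 0.24 to 0.33 when single arrays were left out.

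The probe sets higher with tamoxifen in 4 of 4 pairs were 3 of the 21, against 6.65% of all probe sets, and 0 of the 21 were lower in 4 of 4 pairs, against 6.35%. Beside BAG3 these were 206976_s_at of HSPH1 (0.17, 95% interval -0.04 to 0.38) and 210211_s_at of HSP90AA1 (0.11, 95% interval -0.09 to 0.31). The intervals of the bright probe sets were narrow for some genes. For HSPD1 (200807_s_at) the difference was 0.00 with an interval of -0.08 to 0.09, and for HSPE1 it was 0.01 with an interval of -0.15 to 0.17. For HSPB1 the estimate was -0.07 with an interval of -0.41 to 0.26, and its pairs ran from -0.48 in A549 on estradiol to 0.24 in HTB-182 on estradiol-BSA. A test of whether the tamoxifen difference was unlike in the lines called 0% of probe sets, and 484 (2.09%) had an unadjusted p under 0.05. Among the members the smallest unadjusted p there was 0.0131, for 211015_s_at of HSPA4, at 0.45 (A549 minus HTB-182, adjusted p = 0.984).

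**Figure D3:**
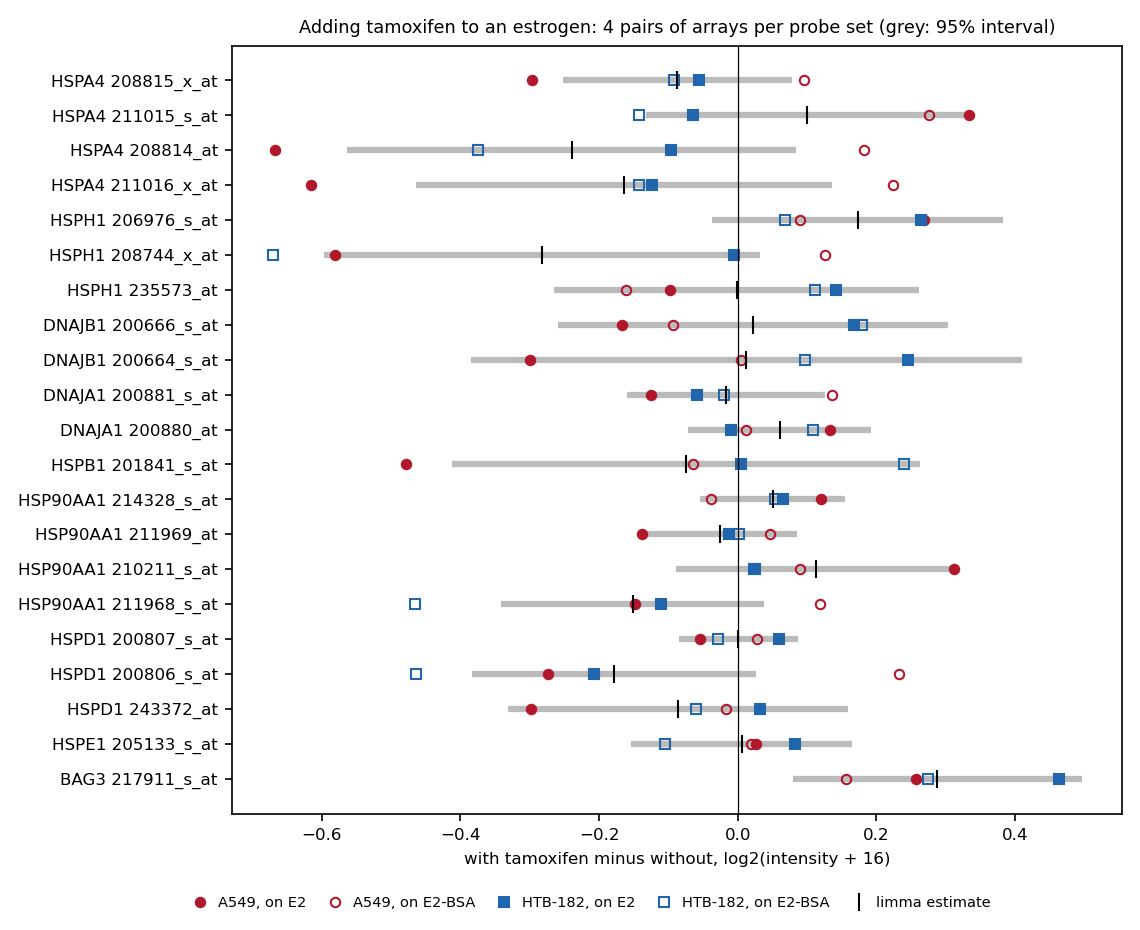
Difference between the array with tamoxifen and the array without, in log2(intensity + 16), for 21 chaperone probe sets (red circles, A549; blue squares, HTB-182; filled, on estradiol; open, on estradiol-BSA; black tick, limma estimate; grey bar, 95% interval). The 4 points of BAG3 all lie above 0, from 0.16 to 0.46, and most other probe sets have points on both sides.

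Estradiol-BSA with tamoxifen, estradiol-BSA, estradiol with tamoxifen and estradiol were each set against vehicle, with 1 pair of arrays in each line. The 4 comparisons share the vehicle arrays, so their values are not independent. Limma called 0% of probe sets in each of the 4, and 0 of the 21 members. An unadjusted limma p under 0.05 was found for 2025 (8.75%), 1570 (6.79%), 1079 (4.66%) and 1117 (4.83%) probe sets in the order just given. BAG3 differed from vehicle by 0.07, -0.14, 0.10 and -0.26 in that order (SE 0.13 for each), and its A549 pairs were all below 0, at -0.11, -0.26, -0.06 and -0.32. In HTB-182 they were 0.25, -0.02, 0.27 and -0.19, so the 2 arrays with tamoxifen lay above vehicle in that line and below it in A549. In A549 all 4 treated arrays lay below vehicle for 10824 of 23130 probe sets. The A549 vehicle array had a median intensity of 21.5, against 17.9 to 19.4 on the other A549 arrays. The part of that array in the BAG3 values was not tested. HSPD1 by 200807_s_at was at -0.0083, -0.0080, 0.01 and 0.01 in that order, with a 95% interval of -0.11 to 0.13 for estradiol.

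All 4 treated arrays of A549 were on the same side of its vehicle array for 12 of the 21 members, 7 above and 5 below. Of all 23130 probe sets 64.9% were on the same side, 4177 above and 10824 below. In HTB-182 this held for 8 of the 21, 3 above and 5 below. There it held for 41.8% of all probe sets, 5558 above and 4115 below. Pairs that share 1 vehicle array fall on the same side whenever that array is the highest or lowest of its line. Among the 12 members, in the order just given, the A549 pairs were 0.58, 0.49, 0.57 and 0.30 for 206976_s_at of HSPH1. They were 0.58, 0.49, 0.51 and 0.20 for 210211_s_at of HSP90AA1, and 0.39, 0.37, 0.27 and 0.24 for HSPE1. For DNAJB1 by 200666_s_at they were -0.71, -0.62, -0.41 and -0.24. In HTB-182 the same HSPH1 pairs were 0.06, -0.01, 0.04 and -0.22, and the DNAJB1 pairs 0.16, -0.02, 0.17 and 0.00. These A549 values all rest on the vehicle array that stood apart in that line, and without replicates they carry no test. In fits that left out the HTB-182 vehicle array, so that vehicle was that A549 array alone, limma called 7, 5, 3 and 0 of the 21 members in the 4 comparisons, beside 12.8%, 11.7%, 9.30% and 6.29% of all probe sets. The lone vehicle array was assumed to vary like the other groups. The called members included 206976_s_at of HSPH1 and 210211_s_at of HSP90AA1 (limma adjusted p = 0.00606 and 0.00661 for estradiol-BSA with tamoxifen). With all arrays the adjusted p for these were 0.563 and 0.569. Without the A549 vehicle array 0 members were called.

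**Figure D4:**
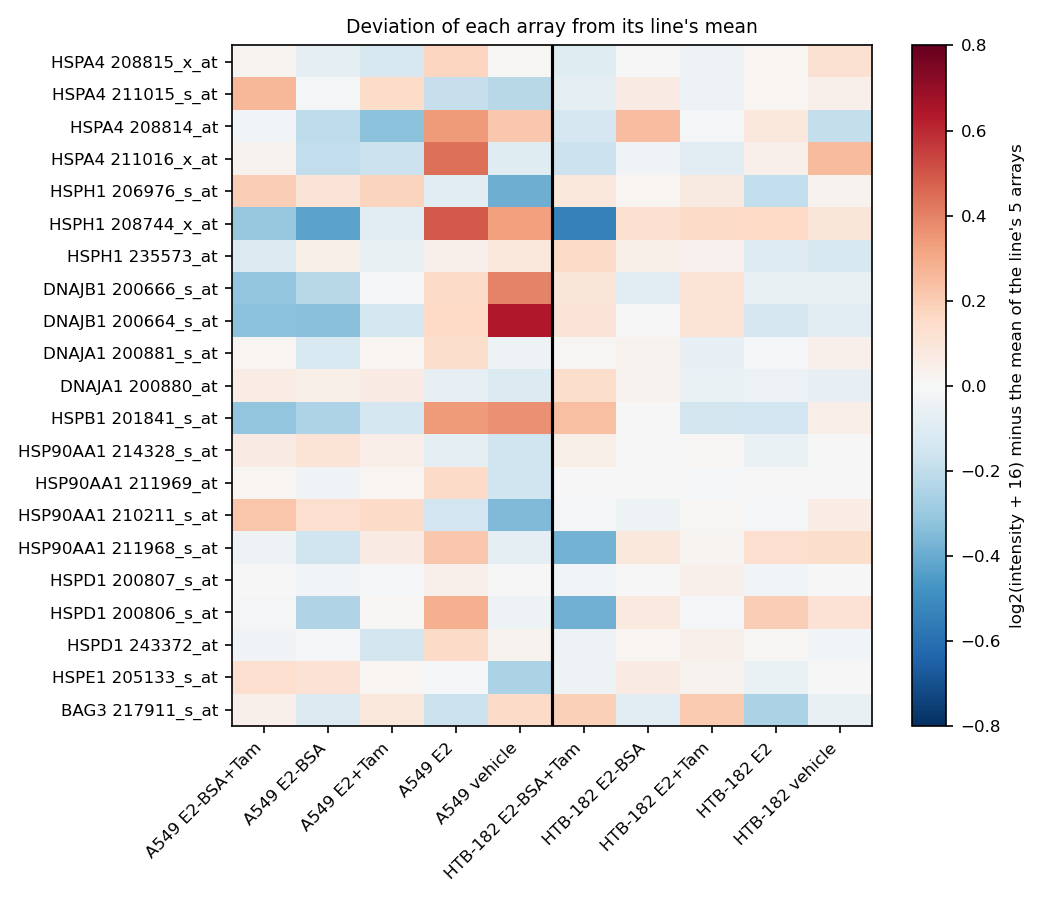
Deviation of each array from the mean of its line's 5 arrays, in log2(intensity + 16), for 21 chaperone probe sets (rows) and 10 arrays (columns; A549 left of the black line, HTB-182 right; red above the mean, blue below). The strongest red is that of DNAJB1 200664_s_at on the A549 vehicle array (0.64), and the strongest blue that of HSPH1 208744_x_at on the HTB-182 array with estradiol-BSA and tamoxifen (-0.54).

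Whether the response to the estrogens was unlike in the lines was tested with a line-by-estrogen term (estradiol and estradiol-BSA without tamoxifen against vehicle). It called 443 of 23130 probe sets, 1.92%, and 0 of the 21 members. Each vehicle array is fitted with no residual there, so the error behind p comes from the treated arrays alone. By limma, the members with the smallest unadjusted p were 210211_s_at of HSP90AA1 (0.43 more in A549, adjusted p = 0.115), 206976_s_at of HSPH1 (0.51, adjusted p = 0.236) and 200664_s_at of DNAJB1 (-0.75, adjusted p = 0.289). When the estradiol array of A549 or of HTB-182 was left out, 6 of the 21 members were called, these 3 among them, beside 11.2% and 10.9% of all probe sets.

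Estradiol-BSA and free estradiol carry the same steroid and are both labelled 1 µM, and the conjugate adds an albumin protein. The labels do not say whether the dose of the conjugate counts steroid or conjugate. Set against each other over 1 pair of arrays per line, estradiol-BSA and estradiol gave 0% of probe sets called by limma and 0 members. An unadjusted limma p under 0.05 was found for 834 probe sets, or 3.61%. The difference for BAG3 was 0.11 with a 95% interval of -0.18 to 0.41, and for HSPB1 -0.22 with an interval of -0.69 to 0.26. The narrowest interval among the brightest probe sets was that of HSPD1, -0.14 to 0.10. By limma, the lowest unadjusted p among the members was that of HSPD1 200806_s_at (-0.32, 95% interval -0.61 to -0.03, adjusted p = 0.991), followed by HSPH1 208744_x_at (-0.47, 95% interval -0.92 to -0.03, adjusted p = 0.991). In both, most of the difference came from A549, with pairs of -0.53 and -0.92 in A549 and -0.12 and -0.03 in HTB-182.

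Within the lines several probe sets were at an extreme on the array with an extreme ACTB control ratio, a pattern that was noticed in these data. It concerns a single array of each line, and the other arrays were not always ordered by the ratio. The ratio was highest, at 6.13, on the HTB-182 array with estradiol-BSA and tamoxifen, against 3.74 to 4.61 on the other HTB-182 arrays. It was lowest, at 2.66, on the A549 array with estradiol, against 3.27 to 3.57 on the other A549 arrays. Of the 21 members, 7 were lowest of HTB-182 on the array with 6.13 and highest of A549 on the array with 2.66, as were 7.40% of all 23130 probe sets. They were 208815_x_at and 211016_x_at of HSPA4, 208744_x_at of HSPH1, 211968_s_at of HSP90AA1, and 200807_s_at, 200806_s_at and 243372_at of HSPD1. Because the pattern was noticed in these same values, these shares are no test of an excess among the members. Several of the 7 also come from the same gene. The gap was wide in some of the 7 probe sets. HSPH1 208744_x_at read 384 on that HTB-182 array, against 608 to 633 on the others of its line, and 1205 on that A549 array, against 630 to 1075. HSPD1 200806_s_at read 3445 against 4467 to 5160 in HTB-182, and 5091 against 3525 to 4210 in A549. In others it was small, as for HSPD1 200807_s_at, at 10024 against 10059 to 10487 in HTB-182 and 9045 against 8664 to 8830 in A549. The brightest probe sets of HSPH1 and HSP90AA1 did the opposite on that HTB-182 array, where they were the highest of the line at 1929 and 9833. The part of RNA quality in these values was not tested.

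**Figure D5:**
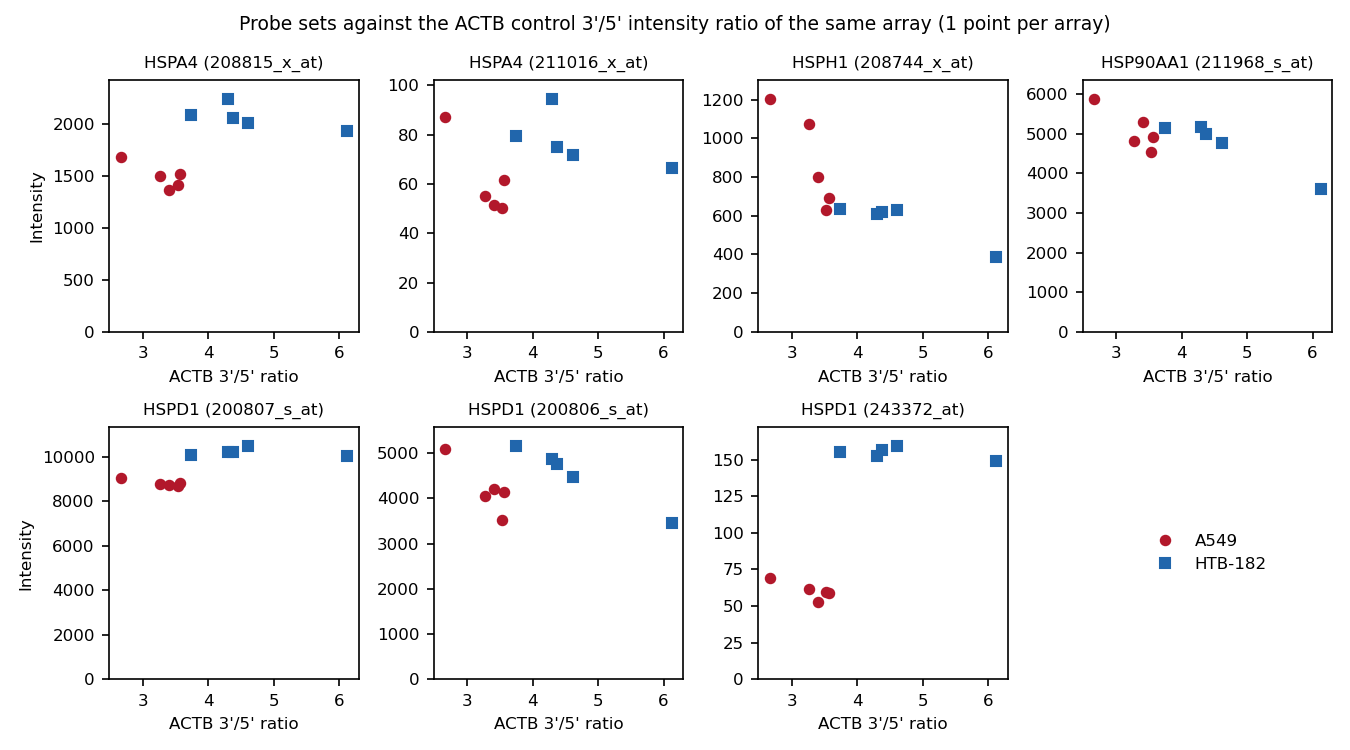
Intensity of 7 chaperone probe sets (y axes from 0) against the ratio of 3' to 5' signal of the ACTB control probe sets on the same array (x axis; red circles, A549; blue squares, HTB-182; 1 point per array, n = 10). The probe sets shown are those whose lowest HTB-182 value is on the array with the highest ratio, 6.13, and whose highest A549 value is on the array with the lowest, 2.66. The drop at 6.13 is wide for HSPH1, HSP90AA1 and HSPD1 200806_s_at and slight for the others.

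Other chaperone genes, counted in lists by their brightest probe set, differed between the lines in both directions. In the list of other HSP90 proteins and co-chaperones, 8 of 13 tested genes were lower in A549 and 1 higher. The largest differences were those of TRAP1, the mitochondrial HSP90 (-1.05 ± 0.09, SE), CHORDC1 (-0.96 ± 0.12), STUB1, a chaperone-bound ubiquitin ligase (-0.50 ± 0.08), and PPID (-0.44 ± 0.07). The median of the list was -0.38, beside 0.03 over all genes. Over all genes 33.6% were higher and 32.0% lower, so a list with such shares is near the array as a whole. Those shares, here and below, come from a separate fit with 1 probe set per gene (12975 genes). The list calls come from the fit of 23130 probe sets, where 31.5% were higher and 32.3% lower. For the heat shock factors and their regulators, 2 of 4 were higher and 1 lower. One of the higher, HSF4, was dim, at 23.9 in A549 and 17.0 in HTB-182, under the filter level of 19.8 in that line. HSF1 itself read 181 ± 39.4 in A549 and 222 ± 18.3 in HTB-182 (SD, n = 5 arrays each; log2 -0.29, adjusted p = 0.0476), and HSPBP1, an exchange factor for HSP70, was at 0.50.

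In the other HSP70 and HSP110 genes, 3 of 9 were higher and 4 lower, where 33.6% of all genes were higher and 32.0% lower. HSPA2, a HSP70 best known from testis, read 1736 ± 110 in A549 and 37.5 ± 10.1 in HTB-182 (5.05 ± 0.12, SE, adjusted p = 2.48e-11). HSPA12A was at 1.57, HSPA5, the HSP70 of the endoplasmic reticulum, at 0.86 and HYOU1, its exchange factor, at -1.24. Of 16 other J proteins, 5 were higher and 7 lower, with DNAJB9 at 2.52, DNAJB4 at 2.35, DNAJB11 at -1.82 and DNAJB6 at -1.08. Of 8 small heat shock proteins and other BAG genes, 3 were higher and 1 lower, HSPB8 among the higher. HSPB8, a partner of BAG3 in selective autophagy, read 174 ± 35.0 in A549 and 11.7 ± 2.50 in HTB-182 (SD, n = 5 arrays each). It passed the filter only through A549, where it is high, so its call is no independent support. CRYAB, dim in HTB-182 at a mean of 28.9, was at 1.93, BAG4 at -1.56 and BAG1 at 0.43.

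The next 2 lists also stand beside 33.6% of all genes higher and 32.0% lower, with a median of 0.03. Of 12 genes of the CCT chaperonin and prefoldin, which fold actin and tubulin, 3 were higher and 6 lower, with PFDN2 at -0.86, VBP1 at -0.79, CCT5 at 0.62 and CCT8 at -0.49. The list of other HSF1 targets and proteotoxic stress genes had 10 of 13 higher and 1 lower, with a median of 0.49. Its largest differences were those of CLU, a secreted chaperone (5.83 ± 0.15, SE), HMOX1, a heme oxygenase (5.43 ± 0.13), SQSTM1, an autophagy receptor (2.13 ± 0.08), and TRIB3, a stress-induced pseudokinase (1.75 ± 0.15). HMOX1 and SQSTM1 are also targets of the antioxidant factor NRF2. For tamoxifen added to estrogen, limma called 0 genes in each of the 7 lists (0 of all genes with 1 probe set per gene). Within these lists only, the largest values were DNAJB9 at 0.31, CHORDC1 at 0.29, HSPA13 at 0.28, HERPUD1 at 0.26 and CHAC1 at 0.25, all with limma adjusted p of 1.00.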

How the data were processed

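Per the submitters' processing notes, MAS5 made the intensity values, which the authors deposited on a linear scale as 1 table of 10 arrays. Its version was not given in the sources used here. Array medians were 17.5 to 21.5, and the number of arrays limits precision. Genes come from the platform annotation: 62 control probe sets, 1801 with several genes and 11721 with none were left out, and 41037 of the 41091 others matched a RefSeq gene number (0 symbol changes).

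Values were used as log2(intensity + 16), so folds of dim genes are understated. Probe sets with a mean at or above the median of all probe sets were tested (23130). Limma (version 3.58.1, R version 4.3.3; intensity trend, Benjamini-Hochberg) fitted line and treatment (4 residual degrees of freedom), and added line-by-tamoxifen (3) or also line-by-estrogen terms (2). Cell line is the block that pairs arrays. The code was tested on simulated data. The members and lists were chosen with earlier results of these data known. Every member is named; other genes are the up to 4 of largest difference per list. Alternatives were pseudocounts of 1 and 64, no filter, quantile normalization, 1 probe set per gene, no cell line in the model, and each array left out.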

Additional observations from a re-analysis of the deposited data

Results flagged for a closer look

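Within each line, the highest and lowest of the 5 arrays were compared with their nearest neighbour, relative to the whole range, for the 21 chaperone probe sets. The 5 arrays had different treatments, and of 42 such sets about 1 in 20 would pass by chance. An array lay beyond the critical value of 0.71 in 3 sets. HSPH1 208744_x_at was low on the HTB-182 array with estradiol-BSA and tamoxifen, at 384 against 608 to 633 on the other HTB-182 arrays, and HSP90AA1 211968_s_at was low on the same array, at 3606 against 4767 to 5174. HSPH1 206976_s_at was low on the HTB-182 array with estradiol, at 1588 against 1838 to 1929.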

How the results depend on the processing

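The line difference kept its direction in 303 of 303 refits of the chaperone probe sets, and HSPB1 (3.28 to 3.54) and BAG3 (1.27 to 1.36) stayed called without any single array. These refits are not independent, and some could not change direction. Refits without the filter or with 1 probe set per gene leave each estimate unchanged, also for tamoxifen. For the line difference, leaving out either array of a treatment pair gives the same estimate. The number of members called ran from 14 to 16 without single arrays, was 17 of 21 with quantile normalization, which moved the median of the A549 vehicle array by -0.11, and was 8 of 9 with 1 probe set per gene, where 8523 genes were called because fewer features were tested. Tamoxifen differences changed sign in 28 of 324 refits, those of 9 probe sets whose differences with all arrays ran from -0.07 (HSPB1) to 0.10 (HSPA4 211015_s_at). Without single arrays they ran from -0.0067 to 0.21 for HSPA4 211015_s_at, -0.0851 to 0.0826 for HSPH1 235573_at, -0.11 to 0.15 for DNAJB1 200666_s_at, -0.12 to 0.15 for 200664_s_at, -0.0634 to 0.0300 for DNAJA1 200881_s_at, -0.25 to 0.10 for HSPB1, -0.0722 to 0.0211 for HSP90AA1 211969_at, -0.0173 to 0.0196 for HSPD1 200807_s_at and -0.0496 to 0.0613 for HSPE1. HSPH1 235573_at was at 0.0014 with a pseudocount of 64 and at 0.0213 with quantile normalization.

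Leaving out single arrays gave 0 to 1454 calls for estradiol against vehicle, 0 to 2715 (0 to 5 members) for estradiol-BSA, 0 to 2150 (0 to 3 members) for estradiol with tamoxifen and 0 to 2966 (0 to 7 members) for estradiol-BSA with tamoxifen. The highest of each came without the HTB-182 vehicle array. The ranges were 0 to 1 for estradiol-BSA against estradiol and 0 to 7 for line by tamoxifen. Line by estrogen ran from 463 to 2581 (0 to 6 members), was highest without an estradiol array, and could not be fitted without a vehicle array. The cause of these shifts was not tested. With no replicate block, that is with the cell line left out of the model, 0 probe sets were called for every treatment comparison. With 1 array per line and treatment, changes in 1 line alone could not be tested, and dim probe sets near the filter level carry little signal over background.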

Other observations

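The 5 genes whose brightest probe sets were most like that of BAG3 over the 10 arrays, after the mean of each line was taken away, were NLRC5 (Pearson r = 0.97), CNEP1R1 (0.95), TRH (0.94), ZNRF4 (0.94) and GPR173 (0.94), out of 12974 genes compared. The points share 10 single arrays, and the correlations are given as descriptions. The genes were picked for matching BAG3, so readings that are higher with tamoxifen, as those of BAG3 are, follow from that choice. CNEP1R1, a subunit of a nuclear envelope phosphatase, read 434 with tamoxifen and 427 without on estradiol-BSA, and 454 with and 423 without on estradiol in A549. In HTB-182 it read 316 with tamoxifen and 272 without on estradiol-BSA, and 311 with and 265 without on estradiol. The other 4 were dim, at 18.2 to 37.0 on every array, close to the filter level of 19.8.

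The 4 probe sets that list HSPA8, the constitutive HSP70, together with SNORD14C and SNORD14D were bright in both lines, and are given here without a gene. Probe set 208687_x_at ran from 6062 to 6588 in A549 and from 5334 to 5956 in HTB-182. Probe set 210338_s_at ran from 3898 to 4724 in A549 and from 3237 to 3565 in HTB-182, and 224187_x_at from 7956 to 8307 in A549 and from 6808 to 7492 in HTB-182. In these 3 the lines did not overlap and A549 was the higher. In 221891_x_at they overlapped, at 6002 to 8239 in A549 and 7062 to 7905 in HTB-182.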
